A study of Mus musculus with 14 samples.

Results

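Gata6 (ENSMUSG00000005836, GRCm38 chromosome 18, 11052064 to 11085635, plus strand) encodes the transcription factor that was switched on from a transgene in these cells, and the accessible regions around the endogenous gene are described here. Its regions were chosen by position. The 14 lists were merged wherever peaks shared 1 bp or more, which gave 124598 regions, and a region was assigned to Gata6 if the nearest transcription start site (TSS) of a protein-coding gene within 50 kb was one of Gata6. This gave 18 regions, of which 9 had their midpoint upstream of the gene and 9 within it. Assignment by distance does not show on which gene a region acts.

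Accessibility was measured by ATAC-seq, in which a transposase inserts sequencing adapters into open DNA, in 2 libraries of 50000 cells at each of 0, 2, 4, 8, 16, 24 and 48 h. All libraries came from KH2 mouse embryonic stem (ES) cells of strain C57BL/6 with the TRE:GATA6-DSREd2 transgene, a single copy of a bidirectional doxycycline (Dox)-responsive element that drives FLAG-tagged GATA6 and DsRed2. Cells at 0 h grew without Dox in serum-free 2i medium with LIF. Cells at 2, 4 and 8 h were in serum medium with LIF and Dox at 1 µg/mL when they were collected, and cells at 16, 24 and 48 h had received Dox for 12 h and then the serum medium without it. The start of Dox and the change of medium therefore cannot be told apart by any comparison with 0 h. Comparisons among 2 to 48 h lie within serum. There, time since the change of medium runs with time since the start of Dox, and Dox was withdrawn after 12 h. Trends from 2 to 48 h therefore cannot tell these apart either. The cells are 1 engineered line. The study describes its replicates as independent experiments in general, and the labels do not say how the libraries of a time point were separated, so p-values measure the spread between these libraries, which may be partly technical.

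GATA6 is a zinc finger transcription factor that binds GATA-containing DNA. In the mouse blastocyst it is required for primitive endoderm (PrE), the layer that later lines the yolk sac, and it counters NANOG, which maintains the epiblast. GATA factors are known to act on their own genes and on each other's, and forced GATA6 converts ES cells towards extraembryonic endoderm. Whether and when the endogenous Gata6 locus opens is therefore a natural question for this time course.

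A library's list had from 55588 to 65073 peaks, and replicate 2 held more than replicate 1 at 7 of 7 time points. They hold no read counts, so a region without a peak was not called in that library and may still be open below its calling threshold. Marker genes were looked up by a called region within 1 kb of their TSS. Of 6 ES cell genes (Nanog, Pou5f1, Sox2, Esrrb, Klf4, Zfp42), 5 were called in both 0 h libraries and 4 in both 48 h libraries. Nanog was called in both libraries at 0, 4 and 16 h, in 1 at 2 and 24 h and in neither at 8 and 48 h. Of 5 PrE genes (Gata4, Sox17, Sox7, Pdgfra, Foxa2), 3 were called in both libraries at 0 h and 5 at 48 h. Among markers of other cells, trophectoderm genes Cdx2, Elf5 and Gata3 were called in all 14 libraries, fibroblast gene Thy1 in 11 with neither of 48 h among them, Col1a2 in 2, and Twist2 and the leukocyte gene Ptprc in 0. A called promoter does not show that the gene is expressed.

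More regions of the Gata6 locus were called in every induced library than before induction. The 0 h libraries called 3 and 4 of the 18 regions, with a mean of 3.5 ± 0.707 (SD, n = 2). After 2 h of Dox the mean was 7.5 ± 2.12, after 4 h 8.5 ± 3.54 and after 8 h 9.5 ± 2.12 (SD, n = 2 each). It stood at 10.5 ± 2.12 after 16 h, 9.5 ± 0.707 after 24 h and 7.5 ± 0.707 after 48 h (SD, n = 2 each). Each of the 12 induced libraries called more Gata6 regions than either 0 h library, and neighbouring induced time points overlapped, except that both 24 h libraries lay above both 48 h libraries. As a share of the 18 regions this was 16.7% and 22.2% at 0 h and from 33.3% to 66.7% after induction, whereas single libraries called from 41.6% to 50.3% of all regions, the 0 h libraries 43.4% and 45.7%. Without the 5 regions that hold Gata6 coding bases, at most 4 were called at 0 h and from 5 to 11 after induction. The base pairs under peaks in these regions also had their highest mean at 16 h, with 5084 ± 635, beside 1679 ± 14.1 before Dox and 3858 ± 17 at the end (SD, n = 2 each). Peaks in all 14 libraries were found at 15.1% of regions genome-wide and a peak in 1 library at 17.9%, against 2 and 2 of the 18 Gata6 regions (11.1% each). At 0 h, 13 Gata6 regions were called in neither library, and 9 of the 18 (50.0%) were called in no 0 h and no 48 h library, as were 25.5% of all regions. Of these 9, 5 hold coding bases, which the transgene also carries, and without such regions the share was 4 of 13 (30.8%), nearer to that of all regions.

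**Figure D1:**
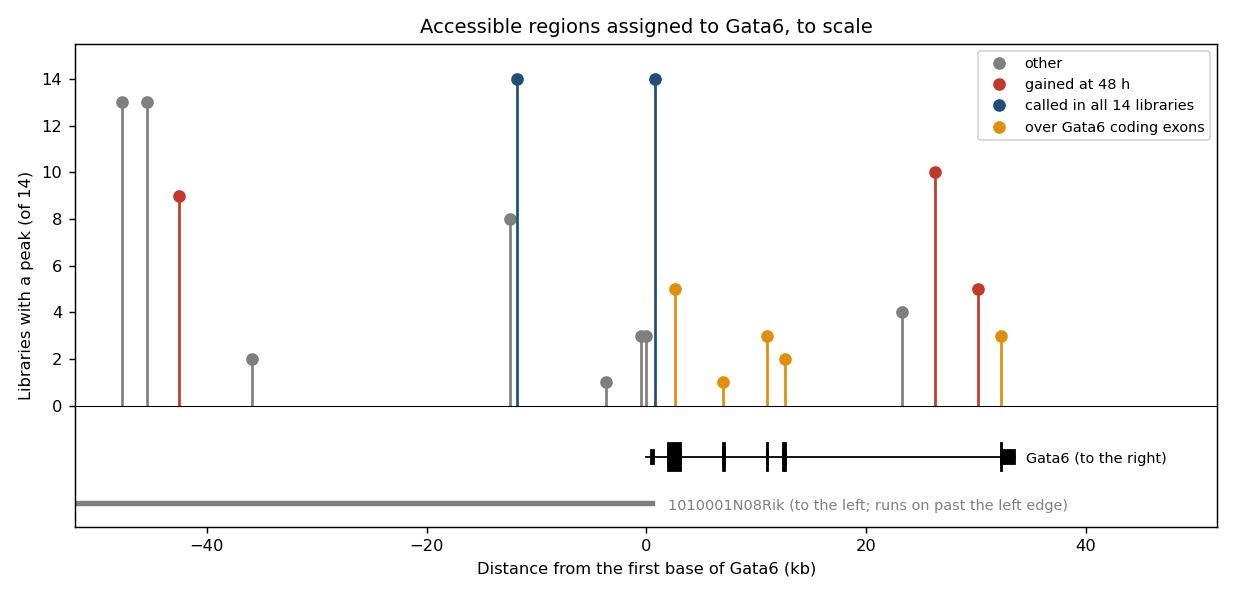
Accessible regions assigned to Gata6, drawn to scale. The horizontal axis is the distance from the first base of Gata6 in kb and the vertical axis the number of libraries, of 14, with a peak; red marks the 3 regions gained at 48 h, blue the 2 called in all 14 libraries, orange those over coding exons and grey the others. Below, thick boxes are coding exons, thin boxes untranslated exons and the grey bar is the antisense gene 1010001N08Rik.

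Regions are named by the distance of their midpoint from the first base of Gata6, with negative values upstream. The upstream regions lie inside 1010001N08Rik (ENSMUSG00000097222, chromosome 18, 10987944 to 11052567, minus strand), a non-coding gene that begins head to head with Gata6 and runs away from it. No other protein-coding gene is close. Mib1 ends 233.4 kb upstream, and Rbbp8 begins 547.6 kb downstream of Gata6. When TSSs of every biotype were used, 10 of the regions were assigned to Gata6, the others being closer to a TSS of another gene. The median protein-coding gene with any region had 4, and 4.14% of 17670 such genes had as many as Gata6.

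Peaks were compared by their score percentile, the share of a library's peaks with a score equal to or below that of the peak. It ranks peaks within a library and does not measure reads. A library without a call has no percentile, and 0 stands for it in the trend test and in the means drawn over time.

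**Figure D2:**
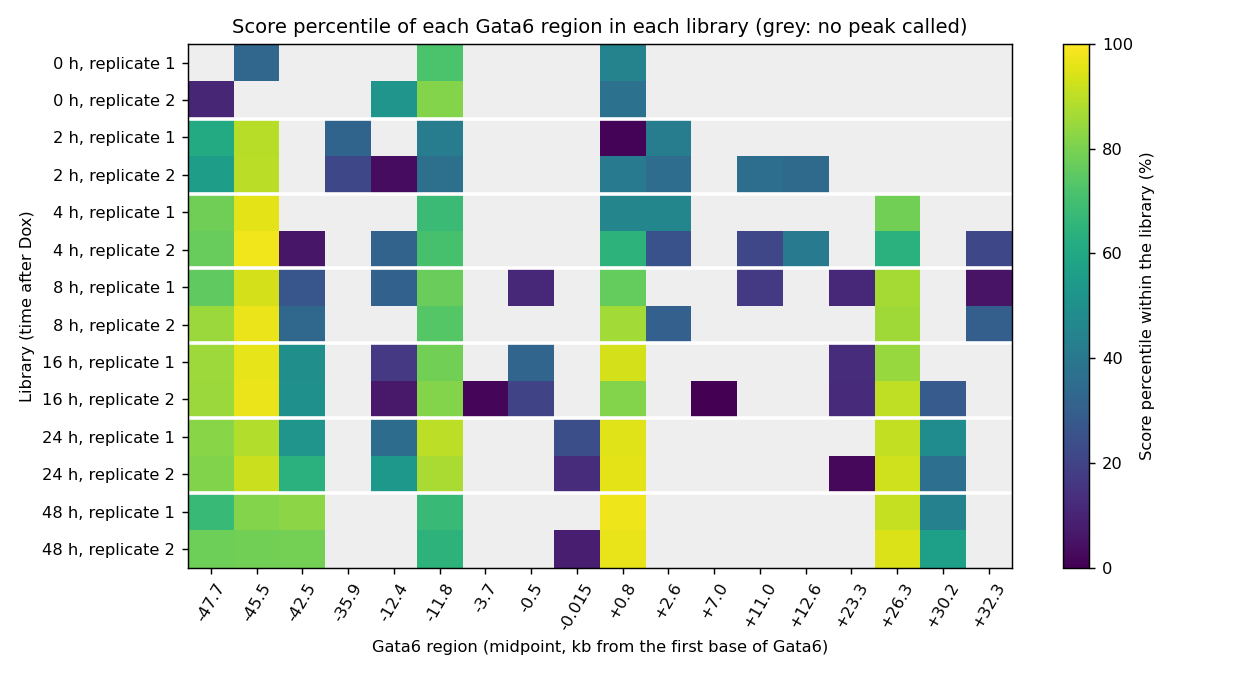
Score percentile of each of the 18 Gata6 regions (columns, named by distance in kb from the first base of the gene) in each of the 14 libraries (rows, by time after Dox). Yellow is a percentile near 100 and dark blue near 0, and grey cells had no called peak. The columns at -11.8 kb and +0.8 kb are filled in every library, those at -42.5, +26.3 and +30.2 kb fill from above downwards, and the cells over coding exons (+2.6, +11.0, +12.6 and +32.3 kb) are filled between 2 and 8 h.

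The Gata6 promoter was open before induction and climbed the ranks after it. The region at +0.8 kb (11052263 to 11053415) starts inside exon 1, which is untranslated, and runs into intron 1. The start of the antisense gene 1010001N08Rik also lies in it, with 93 bp of that gene's exons. The region's rank therefore cannot be credited to the Gata6 promoter alone. This region was called in all 14 libraries. Its percentiles were 44.8 and 37.4 at 0 h, 1.07 and 41.7 at 2 h, 45.4 and 64.6 at 4 h, 76.5 and 86.3 at 8 h, 93.6 and 81.3 at 16 h, 95.1 and 95.7 at 24 h, and 97.3 and 96.6 at 48 h. All 8 libraries from 8 h on lay above all 6 of the earlier ones. The trend over time rose by a two-sided permutation test of Spearman's rho (rho = 0.957, p = 1e-05, the smallest that 100000 shuffles can give; adjusted p = 0.000313 by the Benjamini-Hochberg method over 102341 regions). It also rose among the 12 libraries in serum (rho = 0.975, adjusted permutation p = 0.000381). The value of 1.07 in 1 of the 2 h libraries was the lowest of the 14, and its replicate lay at 41.7, so the 2 h level is poorly fixed.

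The promoter peak also widened. It covered 657 and 441 bp at 0 h, 420 and 414 bp at 2 h, and 1056 and 423 bp at 4 h. From 8 h on, its width was between 1082 and 1129 bp in every library. The replicates at 4 h stood on either side of this change, one narrow and one wide.

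**Figure D3:**
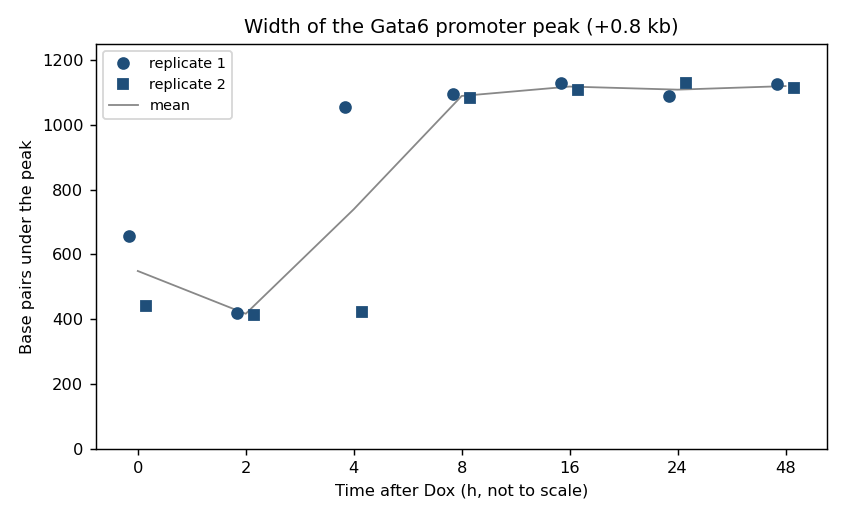
Base pairs under the Gata6 promoter peak (+0.8 kb) in each library against time after Dox in hours, equally spaced and not to scale. Circles are replicate 1, squares replicate 2 and the line joins the means of 2 libraries. Widths are at or below 657 bp at 0 and 2 h, split at 4 h and lie between 1082 and 1129 bp from 8 h on.

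A pair of further regions bordered the start of the gene. The one at -0.5 kb (11051374 to 11051757) was called at 8 h in replicate 1 with a percentile of 11.4 and at 16 h in both libraries at 32.5 and 20.5. The one at -0.015 kb (11051910 to 11052188) spans the first annotated base of the gene but overlaps no exon of the annotated full-length transcript. It was called in both libraries at 24 h at 24.0 and 12.7 and in replicate 2 at 48 h at 8.47. Neither trend passed the threshold, and the second came nearer to it (adjusted permutation p = 0.0733 by calls and 0.0669 by percentile). These smaller peaks were late and of low rank, beside a promoter peak that was high at the same times. The region at -3.7 kb (11048270 to 11048522) was called in 1 library only, replicate 2 at 16 h, at 1.87, and was not tested.

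Comparing 48 h with 0 h, 3 of the 18 regions were gained, meaning called in both 48 h libraries and in neither 0 h library. This is 16.7%, against 14.5% of all regions, so the share at Gata6 was near the background. Without the 5 regions that hold coding bases, 3 of 13 were gained. No region was lost, the reverse case, against 16.6% of all regions, and 2 were shared by all 4 libraries (11.1%, against 18.7%). An exact two-sided test of these 4 libraries cannot give a p under 0.333, so the counts carry none. The gained regions were those at -42.5, +26.3 and +30.2 kb, and each was also called in neither 2 h library, so the same 3 were gained within serum. Replicate 1 alone gave 4 gained regions and replicate 2 alone gave 5, and with replicate 2 alone 1 region was lost.

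Trends were also tested on calls alone, using the mean time rank of the libraries that called a region in an exact permutation test, two-sided, for regions called in 2 to 12 of the 14 libraries. Of 12 Gata6 regions tested, 3 rose and 0 fell after adjustment over 79559 regions, where 12.1% rose and 12.3% fell genome-wide. By percentile, 4 of 16 rose and 0 fell, against 16.1% and 14.2%. At an unadjusted permutation p below 0.05, 4 Gata6 regions passed by calls, and 6 rose and 0 fell by percentile. The share of all regions passing without adjustment is not given here, so these unadjusted counts cannot be set against a background. The 3 that rose by calls were the gained regions, each with an exact permutation p = 0.002 (adjusted p = 0.013), and the promoter, called everywhere and so not testable by calls, was the fourth by percentile. Among the 12 libraries in serum, the calls at +30.2 kb still rose (adjusted exact permutation p = 0.0254), whereas those at -42.5 kb (0.0605) and +26.3 kb (0.0622) missed the threshold. All 3 kept their rise by percentile within serum, with adjusted permutation p between 0.000381 and 0.00409.

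The intronic region at +26.3 kb (11078006 to 11078675) was the first of the gained regions to be called in both libraries. It had no peak at 0 or 2 h and was called in both libraries at every time from 4 h. Its percentiles were 78.8 and 63.7 at 4 h, 86.3 and 85.6 at 8 h, 84.4 and 90.6 at 16 h, 90.8 and 92.8 at 24 h, and 91.1 and 94.6 at 48 h. It was thus among the higher-ranked peaks from its first call on (rho = 0.959, adjusted permutation p = 0.000313). Of the 18070 regions gained genome-wide, 12.0% had their first pair of calls at 4 h, and at 48 h this region ranked above 95.8% and 97.9% of them in the 2 libraries. When width replaced score in the ranking, its rise no longer passed the threshold (rho = 0.538, adjusted permutation p = 0.115).

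The upstream region at -42.5 kb (11009303 to 11009798) followed more gradually. It was called in 1 library at 4 h, at 6.21, and in both from 8 h. Its percentiles were 26.8 and 33.8 at 8 h, 49.8 and 50.2 at 16 h, 52.1 and 63.8 at 24 h, and 82.7 and 79.0 at 48 h. The lowest 48 h value was above the highest 24 h value (rho = 0.970, adjusted permutation p = 0.000313). At 48 h it ranked above 89.6% and 86.8% of all gained regions.

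The second intronic region, at +30.2 kb (11082110 to 11082497), was the last to appear. It was called in replicate 2 at 16 h, at 28.6, then in both libraries at 24 h, at 48.6 and 36.7, and at 48 h, at 44.0 and 56.5. The values at 24 and 48 h overlapped (rho over all libraries = 0.836, permutation p = 0.00015, adjusted p = 0.00181). With 47.6% and 61.8% of gained regions below it at 48 h, it lay near their middle, unlike the other gained regions. The gained Gata6 regions thus had their first pair of calls at 4, 8 and 24 h, and genome-wide 10.4% of gained regions had it at 8 h and 13.3% at 24 h.

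**Figure D4:**
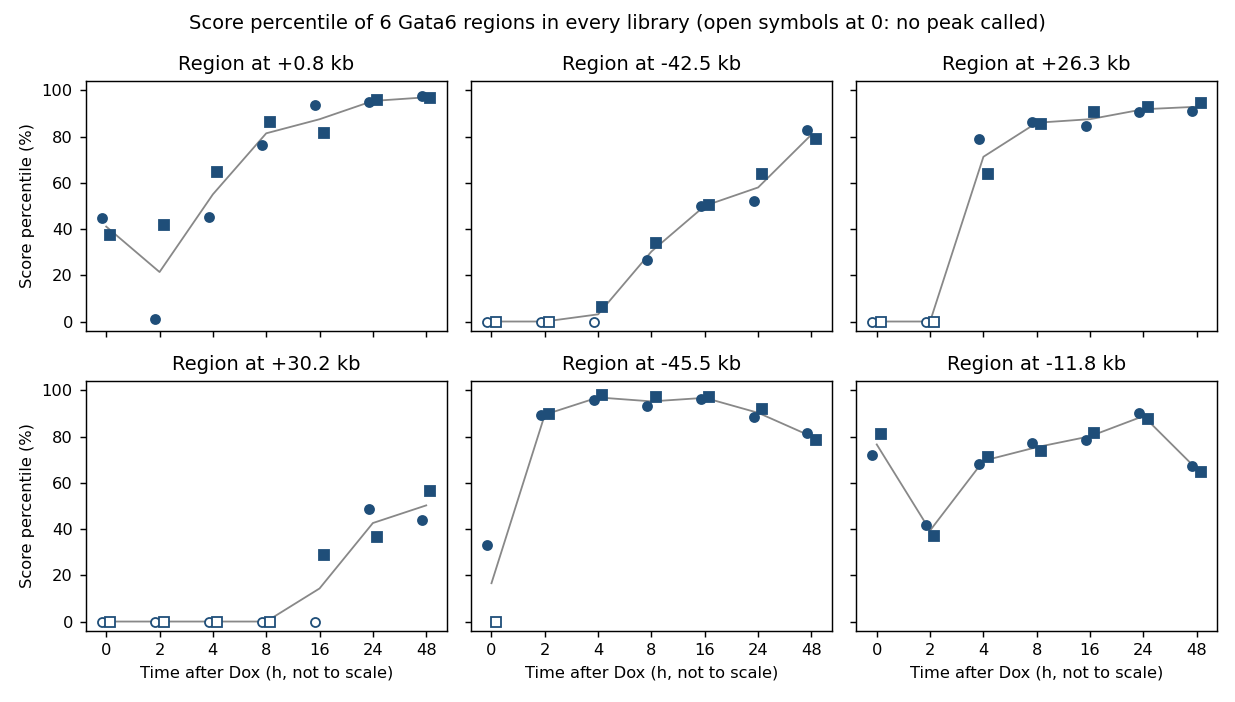
Score percentile within the library against time after Dox in hours, equally spaced and not to scale, for 6 Gata6 regions. Circles are replicate 1, squares replicate 2, open symbols at 0 are libraries without a call and lines join the means of 2 libraries, with no call counted as 0. The promoter (+0.8 kb) and the gained regions (-42.5, +26.3 and +30.2 kb) rise at different times, the region at -45.5 kb is at or above 78.5 from 2 h on, and the region at -11.8 kb dips to 41.9 and 36.8 at 2 h.

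Upstream of -42.5 kb, a pair of regions was already high at 2 h. The region at -45.5 kb (11006295 to 11006800) had a peak in 1 of the 0 h libraries, at 33.1, and none in the other. Its percentiles were 89.4 and 89.6 at 2 h, 96.0 and 97.9 at 4 h, 93.4 and 97.0 at 8 h, 96.4 and 97.1 at 16 h, 88.5 and 92.0 at 24 h, and 81.5 and 78.5 at 48 h. All 12 induced libraries lay above the 0 h value, and both 48 h values lay below those of 2 h. Its monotonic trend did not pass the test (rho = 0.106, adjusted permutation p = 0.799).

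Its neighbour at -47.7 kb (11004083 to 11004707) had a peak in the other 0 h library, at 10.6. It reached 60.9 and 56.0 at 2 h, 78.3 and 76.7 at 4 h, 75.6 and 84.8 at 8 h, 85.4 and 85.0 at 16 h, 82.3 and 81.0 at 24 h, and 67.6 and 77.9 at 48 h. Every induced value again lay above the 0 h value. Its trend missed the threshold (rho = 0.611, adjusted permutation p = 0.0564). Because 1 library called each of these at 0 h, neither counts as gained. Their rise from 0 to 2 h coincides with the change of medium as well as with Dox.

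The region at -11.8 kb (11039924 to 11040592), called in all 14 libraries, moved differently. Its percentiles were 71.9 and 81.3 at 0 h and 41.9 and 36.8 at 2 h. They were 68.1 and 71.0 at 4 h, 77.0 and 73.8 at 8 h, 78.7 and 81.6 at 16 h, 90.2 and 87.5 at 24 h, and 67.3 and 64.5 at 48 h. The 2 h libraries were below and the 24 h libraries above all others, with no overlap. No monotonic trend passed (rho = 0.230, adjusted permutation p = 0.543). The adjoining region at -12.4 kb (11039459 to 11039874) was called in 8 libraries, 1 each at 0, 2, 4 and 8 h, both at 16 and 24 h and none at 48 h, with percentiles between 3.47 and 53.4.

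Other regions were brief. The region at -35.9 kb (11015927 to 11016318) appeared at 2 h in both libraries, at 32.2 and 21.6, and in no other, as did 1.54% of all regions. The intronic region at +23.3 kb (11075273 to 11075536) was called in 1 library at 8 h, in both at 16 h and in 1 at 24 h, always at or below 12.7. Neither trend passed (adjusted permutation p by calls = 0.328 and 0.460).

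Peaks over the coding exons of Gata6 appeared in the libraries with Dox in the medium. The transgene also carries a GATA6 coding sequence, so DNA of the transgene and of the endogenous exons cannot be told apart in these lists. How closely the letters of the transgene match the mouse exons was not tested. Exon 2, which holds 1117 of the 1767 coding bases of the annotated full-length transcript, was covered by the region at +2.6 kb (11054040 to 11055251). Its peaks were called in both libraries at 2 h, at 42.0 and 35.8, in both at 4 h, at 46.1 and 25.1, in replicate 2 at 8 h, at 30.8, and in none of the other 9. Exon 4 (+11.0 kb, 11062984 to 11063153) had a peak in 1 library each at 2, 4 and 8 h. Exons 5 and 6 together (+12.6 kb, 11064476 to 11064826) had a peak in 1 library at 2 h and 1 at 4 h, and the coding part of exon 7 (+32.3 kb, 11084281 to 11084511) in 1 library at 4 h and both at 8 h.

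The outlines of these peaks tracked the coding exons. All 13 peaks over these 4 regions began 31 to 34 bp before a coding start and ended between 2 bp short of and 62 bp past a coding end. The peak over exons 5 and 6 ran across the intron between them. Such outlines were rare. Among all regions, 196 (0.157%) were more than 50% coding and had both edges within 50 bp of the outer edges of the coding exon or exons they covered. Of these, 11 were called in 2 or more libraries and only at 2, 4 or 8 h, and 3 of the 11 were in Gata6, at +11.0, +12.6 and +32.3 kb, while the region over exon 2 ended 62 bp past its exon. No other gene had more than 1.

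Summed over the 6 coding exons, peaks covered 0% and 0% of the Gata6 coding bases at 0 h, 63.2% and 81.2% at 2 h, 63.2% and 90.4% at 4 h, and 16.5% and 72.6% at 8 h. The share was 0% and 9.45% at 16 h and 0% in all 4 libraries at 24 and 48 h. Every library with Dox in the medium lay above every library without it. The value of 9.45% came from exon 3, covered by the region at +7.0 kb (11058888 to 11059300), which only replicate 2 at 16 h called, at 0.283. Replicates differed widely within 2, 4 and 8 h, and replicate 2 was the higher in each case.

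**Figure D5:**
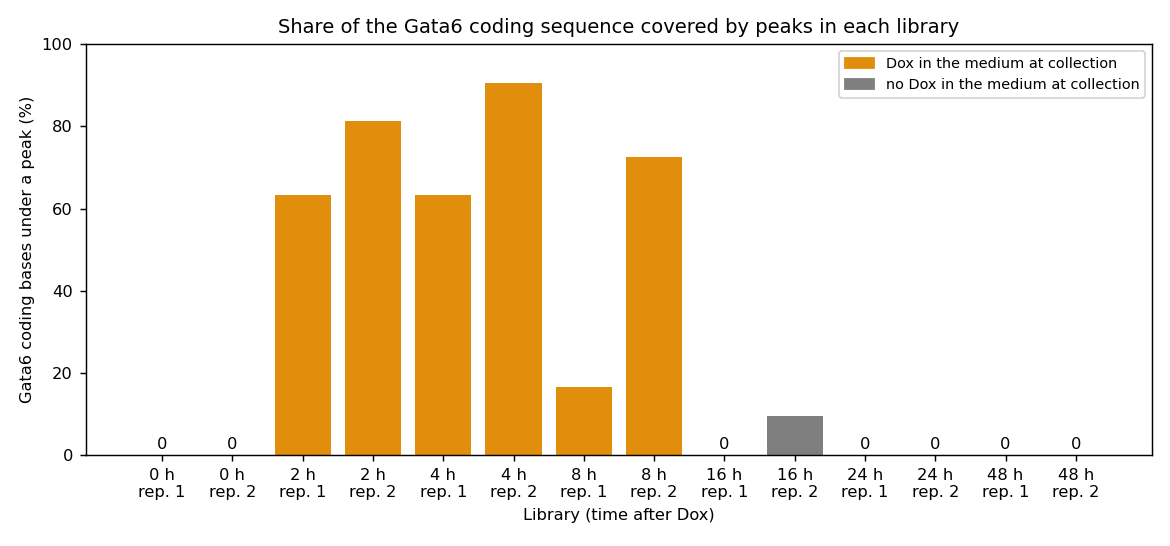
Share of the 1767 Gata6 coding bases under a peak, in percent, for each of the 14 libraries by time after Dox. Orange bars are libraries collected with Dox in the medium and grey bars those without. The 6 orange bars lie between 16.5% and 90.4%, and of the other 8 libraries 7 are at 0%.

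Counted by region, 5 of the 18 Gata6 regions (27.8%) were called in 2 or more libraries and only at 2, 4 or 8 h, against 7.49% of all regions. Over coding exons lay 4 of them, and the fifth was the region at -35.9 kb. Over the whole time course none of the 4 showed a trend (adjusted permutation p by percentile between 0.191 and 0.839). Among the 12 libraries in serum, the region over exon 2 fell, both by calls (adjusted exact permutation p = 0.0254) and by percentile (rho = -0.835, adjusted permutation p = 0.00804). The 3 gained regions lie upstream or in the intron before exon 7, and none of them and no part of the promoter region overlaps a coding exon.

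At other PrE genes more regions rose than fell over the same time. The list held 11 genes, namely transcription factors Gata4, Sox17, Sox7, Foxa2 and Hnf4a, the receptor Pdgfra, the endocytic proteins Dab2, Cubn and Lrp2, and the basement membrane proteins Lama1 and Col4a1. Of 184 regions assigned to them, 68 were gained (37.0%), 17 lost (9.24%) and 12 shared (6.52%), against 14.5%, 16.6% and 18.7% of all regions. Of 136 tested by calls, 40 rose and 7 fell by the exact permutation test with the genome-wide adjustment, against 12.1% and 12.3% of all regions tested. The median correlation of calls with time was 0.595 in these and -0.0745 over all 79559 regions tested. At Gata4, 6 of 16 tested regions rose and 0 fell, at Sox17 7 of 9 and 0, and at Foxa2 5 of 13 and 0. Others were mixed, with 1 region rising and 2 falling of 14 at Lrp2, 1 and 1 of 4 at Sox7, and 4 and 2 of 21 at Col4a1. Gata6, with 3 of 12 and 0, had 16.7% of its regions gained, where each of the 11 listed genes had between 25% and 63.6%. Without the 5 Gata6 regions that hold coding bases, 3 of 13 were gained, nearer to the lowest of these genes. Of the 184 regions, 8 (4.35%) were called in 2 or more libraries and only at 2, 4 or 8 h, against the 27.8% at Gata6. Of the 5 Gata6 regions behind that share, 4 lay over coding exons, whose coding bases the transgene also carries. The other, at -35.9 kb, was 1 of the 13 Gata6 regions without coding bases. Whether Gata6 differs from the listed genes was not tested.

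Genes were also ordered by how their number of called regions varied over the 14 libraries, as a description across libraries that share their depth. Among 7573 protein-coding genes with at least 5 regions, those most like Gata6 were Bcr (Pearson's r = 0.943), Tpm1 (0.904), Jup (0.892), Ptpn13 (0.889) and Fbln5 (0.888). The median r was 0.125, and 35 genes (0.462%) exceeded 0.8. Tpm1, which encodes a tropomyosin, had a mean of 3.5 called regions at 0 h, 9 at 16 h and 6.5 at 48 h, close to the course at Gata6. With the mean percentile per gene in place of the count, none of these 5 was among the first 5.

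GATA motifs were counted in the 200 bp at the centre of each region, since GATA6 was the induced factor. The letters searched were AGATAA or AGATAG or TGATAA or TGATAG on either strand. At least 1 was found in 10 of the 18 Gata6 regions (55.6%), against 35.5% of all regions and 57.8% of all gained regions. A rearranged control (AAGTAA or AAGTAG or TAGTAA or TAGTAG) was found in 3 (16.7%), against 21.2% of all regions. In a 400 bp window the GATA letters were in 13 (72.2%, against 52.7% of all) and the control in 6 (33.3%, against 39%). Over whole regions, which differ in width, the GATA letters were in 12 (66.7%, against 57.8% of all) and the control in 10 (55.6%, against 45.4%), so the contrast with the control was not seen there. A match is a description of these letters and not a bound site.

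By region, all 3 gained regions held 1 GATA motif in the central 200 bp window, as did those at -47.7, -12.4 and -3.7 kb. The regions at -45.5, -0.5 and +23.3 kb held 2 each, and 11.7% of all regions hold 2 or more. The promoter held 0 in the central window and 5 over its whole length. The regions over exons 2, 3, 4 and 7 held 0 in the window, and that over exons 5 and 6 held 1. Motifs of AP-1 (TGACTCA or TGAGTCA), a factor formed by Fos and Jun proteins, were in 3 Gata6 regions (16.7%, against 9.22% of all). The region at -35.9 kb, called at 2 h only, held 2 of them, and those at -42.5 and +30.2 kb 1 each. SOX motifs (ACAAAG or ACAATG) were in 3 of the 18 (16.7%, against 30.3%). The promoter held 61.9% G or C and the region over exon 2 72.9%, against a median of 50.3% over all regions, and the regions at +7.0 and -0.015 kb were also high, with 62.7% and 60.6%. The promoter's ratio of observed to expected CpG of 0.613 was exceeded by 11.6% of all regions.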

How the data were processed

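The authors ran the ENCODE ATAC-seq pipeline and deposited a list of peaks for each library. File names give an irreproducible discovery rate filter of 0.05 on pseudoreplicates and a blacklist filter, and replicates were not pooled. The submitters' processing notes name mm10 and GRCm38. No region ended past its chromosome in GRCm38, and positions are counted from 1. Each deposited peak carries 1 unnamed score, whose scale is not given in the sources used here, and only its rank within a library was used. The lists give no depth, and the study's read numbers were not used here, so no interval that needs reads is given, and the study's read count test could not be run.

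Regions, TSSs and exons were joined with GENCODE M21. Trends used time labels permuted over the 14 libraries, exactly for calls and with 100000 shuffles for percentiles, for regions called in 2 or more libraries, with Benjamini-Hochberg adjustment at 0.05 over all regions tested. Calculations used Python 3.11.15, NumPy 2.4.6 and SciPy 1.17.1 and were tested on simulated data. Text names Gata6 and its regions, the 11 listed PrE genes, the listed markers, the nearest protein-coding neighbours and the 5 genes with the highest r. Genes sharing a peak outline with Gata6 exons are counted only. Some genes of the lists are not reported here and were left out of every list count. Members and lists were chosen with earlier results of these data known. Alternatives covered the peaks kept, merging gap, distance limit, gene biotypes, coverage for a call, libraries needed, 0 h libraries, ranking value, motif window, replicate block and single replicates; the 2 h reference, the set without coding exons and the alternatives for the PrE list were added after seeing the data.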

Additional observations from a re-analysis of the deposited data

Results flagged for a closer look

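At the region at -11.8 kb of Gata6, open in all 14 libraries, the time points moved in opposite directions from 0 h. The mean percentile of 2 libraries minus that at 0 h was -37.2 at 2 h, -7.06 at 4 h and -10.7 at 48 h, where both libraries lay below both 0 h libraries, and 12.3 at 24 h, where both lay above. The difference between these time points was not tested. All 4 values set serum libraries against 0 h libraries from another medium, and the part of the medium in them cannot be told apart from that of Dox.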

How the results depend on the processing

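Of 80 alternatives that kept both replicates, over 16 results, 63 were scored as the same. For a count this meant a value close to the reported one and not always equal to it. With a limit of 100 kb, 24 Gata6 regions were scored as the same as 18. So were 27 rising regions of the listed PrE genes without the 0 h libraries, against 40. A turned direction could be scored only for the rho of the 4 rising regions, and none of these turned. With TSSs of every biotype 10 regions were assigned to Gata6 and 1 was shared. With a limit of 100 kb, 6 were gained and 1 lost. With 1 library enough for a call, 1 was lost and 4 shared, and with 50% of the region covered 1 was shared. With 2 h in place of 0 h, 2 were lost and 4 shared. Without the 0 h libraries, 1 region rose and 1 fell by calls and 1 fell by percentile (the region over exon 2 in both cases of falling), and 4 regions of the listed PrE genes fell. Among regions called in all 14 libraries, 1 rose by percentile. By mean percentile, 0 of the 5 genes most like Gata6 were shared. With width in place of score the rho at +26.3 kb was 0.538, below the threshold. The replicate numbers did not pair the libraries (correlations of deviations between -0.0184 and 0.0162 over 21 pairs of time points). Under the replicate block 3 Gata6 regions rose by calls, 4 by percentile and 0 fell, and 3 regions of the listed PrE genes fell. With single replicates, 4 to 5 regions were gained and 0 to 1 lost, and 0 rose by calls or percentile at Gata6 and 0 rose or fell in the PrE list. The 7 libraries left allow no exact p below 0.0571 by calls, so the counts by calls say nothing of stability. The percentile test is limited too. With replicate 2 alone, the percentiles at -42.5 and +26.3 kb never fell between successive time points, and rho was 0.991 at each. Even this order did not pass after adjustment. With 1 library per time point the counts by percentile therefore say nothing of stability either. The rho of the 4 rising regions then ranged from 0.964 to 0.991 at -42.5 kb, 0.955 to 0.991 at +26.3 kb and 0.757 to 0.906 at +30.2 kb, and was 0.964 at +0.8 kb. The GATA motif stood further above all regions than its control in the central windows of 200 and 400 bp but not over whole regions. The lists do not give depth, the study's read numbers were not used here, and a region without a call may be open below the calling threshold.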

Other observations

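Beyond 50 kb, 15 further regions had Gata6 as the gene with the nearest protein-coding TSS at any distance, and 6 of them were gained at 48 h, 1 was lost and 0 were shared, against 14.5%, 16.6% and 18.7% of all regions. The regions at -66.0 kb (chromosome 18, 10985893 to 10986319), -52.5 kb (10999298 to 10999778) and +64.1 kb (11115934 to 11116309) had a peak in both 48 h libraries and in neither at 0 h. The region at -66.0 kb was also called in 1 library at 24 h, and the other two at no other time. The region at +60.3 kb (11112100 to 11112633) had a peak in both 0 h libraries, in 1 library each at 2 and 8 h and in none later. The region at -73.3 kb (10978618 to 10978982) had a peak in both 8 h libraries and in no other.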
